A study of Mus musculus with 12 samples.

Results

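Hnf4a, Foxa1, Foxa2, Foxa3 and Cebpa encode transcription factors that set and keep hepatocyte identity, and their transcripts were examined here for N6-methyladenosine (m6A), an internal methylation mark of mRNA. The members were all peaks assigned by gene name to these genes in the authors' table of m6A peaks: 8 peaks in 5 genes, of 17503 named peaks in 10277 genes. The study set livers of Mettl3-deficient C57BL/6 mice against those of wild-type (WT) mice of that strain, using sequencing of RNA precipitated for m6A. The 12 libraries fall into 4 groups of 3 replicates, namely Mettl3-deficient IP, Mettl3-deficient input, WT IP and WT input, where IP is poly(A) RNA precipitated with an anti-m6A antibody and input is the mRNA without precipitation. The series title places the tissue in postnatal life. The labels give neither the age of the mice nor how and in which cells Mettl3 was removed, so bulk liver RNA is described without a cell type.

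METTL3 is the catalytic subunit of the complex that deposits m6A on nascent mRNA, mostly near stop codons, in 3′ UTRs and in long internal exons. Reader proteins bind the mark and can speed the decay of the transcript or change its processing. HNF4α is a nuclear receptor that drives much of the hepatocyte expression programme. FOXA1, FOXA2 and FOXA3 are forkhead proteins that open chromatin at liver enhancers in development. C/EBPα is a basic leucine zipper factor that promotes metabolic gene expression and restrains hepatocyte proliferation.

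All values of single peaks below come from the authors' deposited table, in which each peak has a log2 fold change between the genotypes and a false discovery rate (FDR), stored as a log10. A peak is termed called where that FDR was 0.05 or below. The table does not say which genotype stands on top of the fold change. From the design, lower m6A in Mettl3-deficient liver likely reads as a negative value, but the text keeps to negative and positive. Values per library were not analysed here, so no spread between mice stands beside any change, read depth is unknown, and whether 2 changes differ could not be tested. Of the hepatocyte markers 8 of 9 had a listed peak, as did 5 of 7 endothelial, 5 of 6 stellate, 5 of 6 macrophage and leukocyte and 2 of 5 cholangiocyte markers. The hepatocyte markers include Hnf4a, a member whose listed peaks were known in advance. A listed peak means that the authors reported a region of the transcript, by a peak caller and filters not given here. It does not show how abundant the transcript was. In bulk liver, fewer cells of a type and less RNA per cell cannot be told apart.

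The sequences around the transcript starts are shown because the peaks of Hnf4a, Foxa2 and Cebpa annotated to the 5′ UTR reach or begin there. They come from RefSeq on assembly GRCm38.p6, the build known as mm10, and run from 250 bases before the start to 50 after it. Capitals mark the 50 transcribed bases, all of which lie inside the listed peak. The window of Hnf4a is chr2:163546905-163547204 on the plus strand, that of Foxa2 chr2:148046920-148047219 on the minus strand and that of Cebpa chr7:35119043-35119342 on the plus strand.
Hnf4a: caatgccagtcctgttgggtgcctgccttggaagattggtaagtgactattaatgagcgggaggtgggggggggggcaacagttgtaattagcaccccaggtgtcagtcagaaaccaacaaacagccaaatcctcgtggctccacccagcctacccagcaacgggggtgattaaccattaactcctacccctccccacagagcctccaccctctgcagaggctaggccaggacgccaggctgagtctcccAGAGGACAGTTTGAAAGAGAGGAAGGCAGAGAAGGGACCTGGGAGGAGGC
Foxa2: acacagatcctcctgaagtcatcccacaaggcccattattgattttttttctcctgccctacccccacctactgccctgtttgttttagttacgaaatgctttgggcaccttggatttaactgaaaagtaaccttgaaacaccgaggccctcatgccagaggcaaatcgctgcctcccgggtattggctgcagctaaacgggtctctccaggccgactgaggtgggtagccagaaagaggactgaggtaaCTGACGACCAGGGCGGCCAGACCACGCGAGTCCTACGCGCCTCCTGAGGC
Cebpa: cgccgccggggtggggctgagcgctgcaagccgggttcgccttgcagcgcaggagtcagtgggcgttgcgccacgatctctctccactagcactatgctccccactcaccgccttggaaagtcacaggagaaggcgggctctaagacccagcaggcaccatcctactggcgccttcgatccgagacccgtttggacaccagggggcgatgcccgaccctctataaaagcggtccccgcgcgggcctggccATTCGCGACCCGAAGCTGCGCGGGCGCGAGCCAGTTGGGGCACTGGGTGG

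METTL3 acts on a short sequence context around an A followed by C, of which GGACT is the best known form. In the first 50 transcribed bases 6 such words were searched on both strands, which begin with AGAC or GGAC and go on with A, C or T. Each of them also fits the looser NNACN, and neighbouring words can share a base. The liver start of Hnf4a held GGACA at base 4 and GGACC at base 35, counted from the first transcribed base. The outer start of Foxa2 held AGACC at base 19. No such word lay in the 50 bases of Cebpa. RefSeq lists 8 starts for the 5 genes, and the 50 bases held a word in 5 of them. Of the 5 starts whose 50 bases lay wholly in a listed peak, 3 held a word. Over all 32851 RefSeq promoter windows, 28.3% held a word in those bases on the transcribed strand and 27.2% on the other strand, while GGACT alone was in 5.76%. The looser NNACN was in 85.4% on the transcribed strand. These are matches of letters in a window and not methylated sites.

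Each of the 5 genes had a called negative peak, and it was the peak with the smallest FDR in each (the leading peak). In all, 5 of the 8 peaks were negative and called and 3 positive and called. Among all listed peaks 76.2% were called, 40.6% negative and 35.6% positive, so a called peak is common in this table. By leading peak, 5 of 5 genes were negative and called, where 81.1% of all genes were called, 47.6% negative and 33.6% positive. Of the 4 member peaks in the 3′ UTR, 2 were negative and 2 positive. Of all listed 3′ UTR peaks 81% were called, 48.9% negative and 32.1% positive. Of the 4 in the 5′ UTR, 3 were negative and 1 positive. Of all listed 5′ UTR peaks 76.4% were called, 23% negative and 53.4% positive, the reverse balance. The genes were taken with these results known, so the count is a description.

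**Figure D1:**
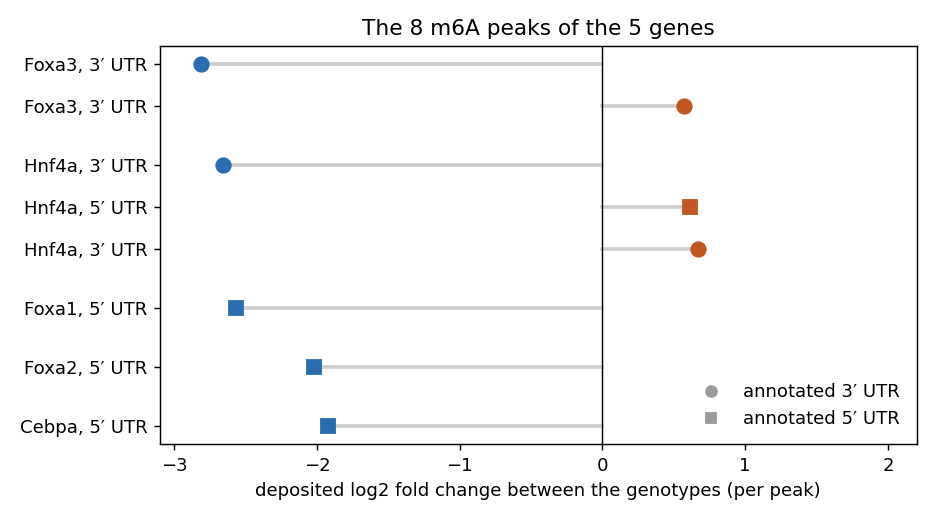
Deposited log2 fold change of each of the 8 peaks, by gene and annotated feature, with genes ordered by their leading peak (circles, 3′ UTR, squares, 5′ UTR). The 5 negative peaks lie between -2.81 and -1.92 and the 3 positive ones between 0.57 and 0.67, with nothing between.

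The sizes of the negative changes followed the order Foxa3, Hnf4a, Foxa1, Foxa2, Cebpa. In the authors' deposited table Foxa3 stood at -2.81, a ratio of 0.143. Hnf4a followed at -2.66 (ratio 0.158) and Foxa1 at -2.57 (ratio 0.168) in the authors' deposited table. Foxa2 and Cebpa formed the smaller end, with -2.02 and -1.92 as the authors' deposited table gives them, ratios of 0.247 and 0.264. The range over the genes was 0.89 on the log2 scale, and neighbours in this order could not be tested against each other. The median of the 5 was -2.57, beside -0.79 over the 8335 genes with a called leading peak. Among those genes, 206 (2.47%) lay below Foxa3 and 286 (3.43%) below Hnf4a. Below Foxa1 lay 343 (4.12%), below Foxa2 979 (11.7%) and below Cebpa 1185 (14.2%). As a mean over all its peaks Foxa3 came to -1.12 and Hnf4a to -0.46, since both also had positive peaks.

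**Figure D2:**
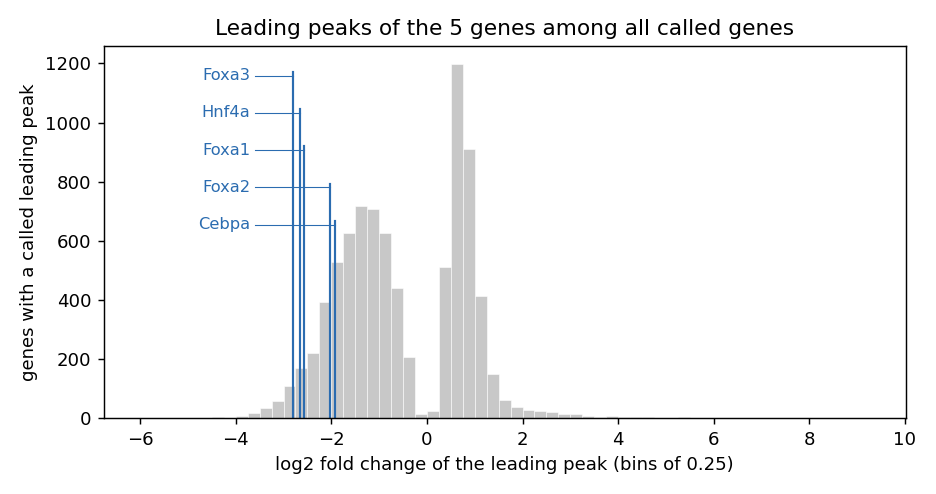
Histogram of the log2 fold change of the leading peak over the 8335 genes with a called one, in bins of 0.25, with the 5 genes marked by lines. All 5 lie in the left part of the negative mode, Foxa3 farthest out at -2.81 and Cebpa innermost at -1.92.

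The leading peaks of Hnf4a, Foxa2, Foxa3 and Cebpa sat at the lowest FDR value that the table holds, a log10 of -434, which 485 peaks share. Of those, 423 were negative and 62 positive. Foxa1 had a log10 FDR of -123 in the authors' deposited table although its change was larger than those of Foxa2 and Cebpa. The order by FDR and the order by size of change therefore differ among these genes.

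Hnf4a was the member with the most peaks, and they did not move together. The gene (ENSMUSG00000017950) spans chr2:163506811-163572907 on the plus strand. In the authors' deposited table its peak at chr2:163546907-163550234, annotated to the 5′ UTR, stood at 0.61 (log10 FDR -23.2), a ratio of 1.53. That peak covers 298 of the 300 bases of the window printed above and begins 40096 bases downstream of the 5′ end of the RefSeq gene span. The gene's other RefSeq start, at 163506857, had no listed peak over its window. These are the gene's 2 alternative promoters: the downstream one is known as the promoter used in adult liver and the upstream one for its use in pancreatic beta cells and fetal liver. The negative peak lies 19887 bases farther on, in the 3′ UTR at chr2:163570122-163570601 and 480 bp wide. The third lies at chr2:163572700-163572910, is 211 bp wide, and has 0.67 in the authors' deposited table, a ratio of 1.59, with a log10 FDR of -56.3. Between the 3′ UTR peaks lie 2098 bases, and their log2 changes differ by -3.33, upstream minus terminal.

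Foxa3 showed the same arrangement in its 3′ UTR. The gene (ENSMUSG00000040891) spans chr7:19013283-19023539 on the minus strand, so its 3′ end is the lower coordinate. Its negative peak lies at chr7:19013883-19014751, 869 bp wide, and ends 600 bases before the RefSeq end. The other, at chr7:19013284-19013464 and 181 bp wide, stood at 0.57 in the authors' deposited table (log10 FDR -8.8), a ratio of 1.48. The peaks are 418 bases apart and differ by -3.38 on the log2 scale, upstream minus terminal. No peak was listed over the first 50 bases of Foxa3, which held GGACT at base 4.

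**Figure D3:**
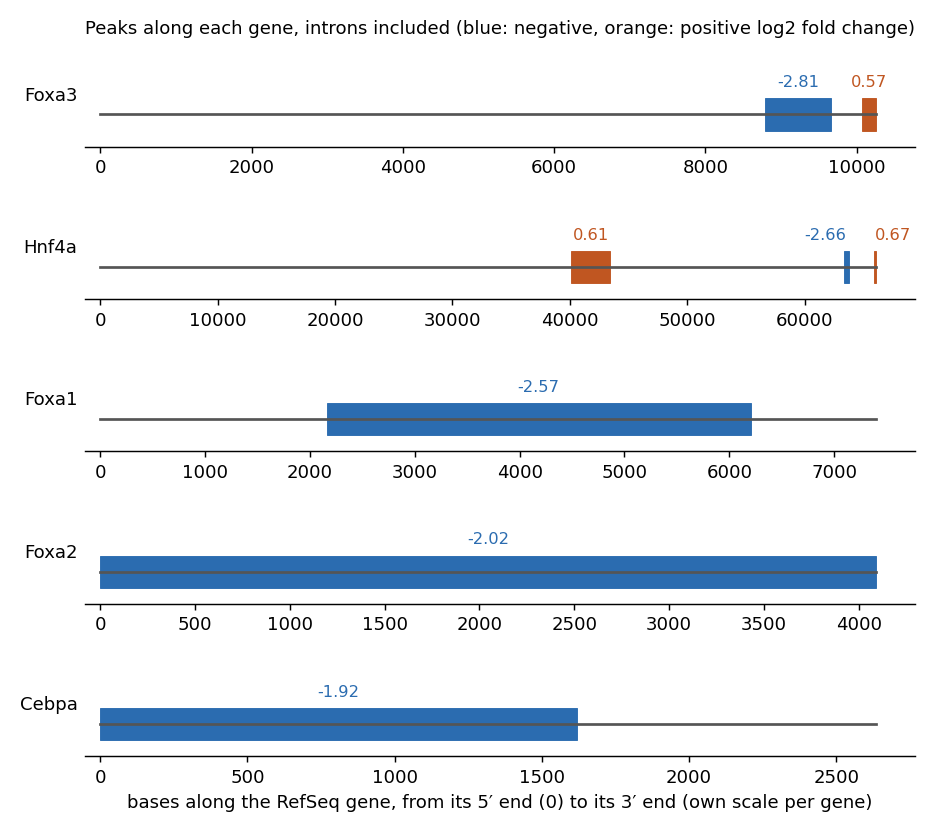
The listed peaks drawn along the RefSeq span of each gene, from 5′ (left) to 3′ end (right), introns included and each gene on its own scale in bases, with the log2 fold change of each peak above it. In Foxa3 and Hnf4a a narrow positive peak sits at the very end of the gene beyond a negative one, while in Foxa1, Foxa2 and Cebpa a single negative peak covers more than 50% of the span.

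In both genes the positive 3′ UTR peak ends at the end of the gene itself. The outer edge of the Hnf4a peak passes the RefSeq end by 3 bases, and that of the Foxa3 peak stops 1 base short of it. The same position was therefore looked at over the whole table, among called 3′ UTR peaks whose gene had a RefSeq span and strand, which were 7586 of 7943. Of peaks ending within 50 bases of the gene end 39.9% of 2584 were negative, beside 72.4% of the 4554 that lay farther upstream. The rest of the 7586 passed the gene end by more than 50 bases and are in neither class. This class of position was chosen after the peaks of Hnf4a and Foxa3 had been seen. Narrow peaks of at most 300 bp at the end, as in Hnf4a and Foxa3, were positive in 87.0% (869 of 999). Their median log2 change was 0.69, beside 0.67 in Hnf4a and 0.57 in Foxa3. Width moved with these shares: peaks of at most 300 bp that lay farther upstream were negative in 51.2% of 1227, and those over 5000 bases away in 48.6% of 148. The part of width in the contrast was not tested.

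Over peaks of all widths, the negative share rose with distance up to 5000 bases from the end. Over 5000 bases away it was lower again, at 66.8% of 665. In the class that holds the upstream Foxa3 peak, over 500 and up to 1000 bases from the end, 584 of 774 peaks or 75.5% were negative (Wilson 95% interval 72.3 to 78.4), with a median of -1.14. In the class that holds the upstream Hnf4a peak, over 2000 and up to 5000 bases away, 80.9% of 1232 were negative (78.6 to 83.0), with a median of -1.32. The intervals cover counting error over peaks only, and peaks are not replicates of the genotypes. Both members thus had the sign most common in their class and a change beyond its median.

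**Figure D4:**
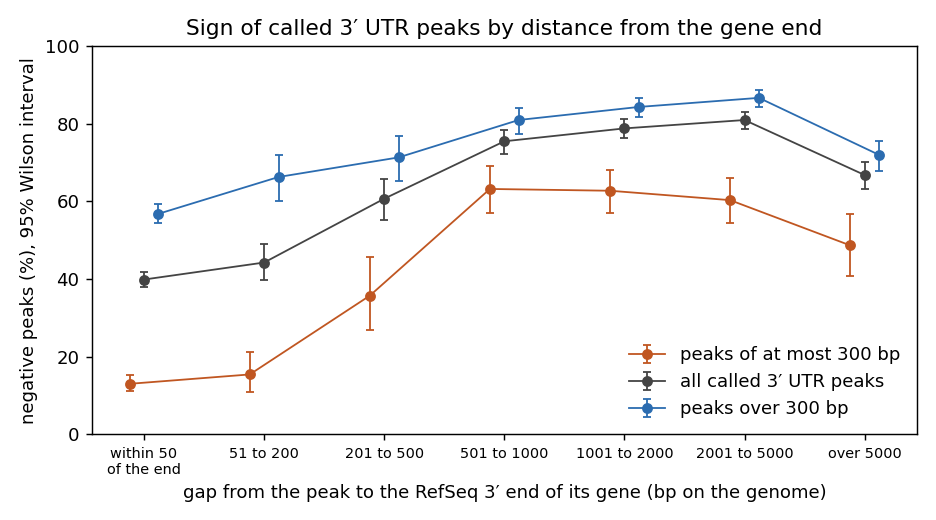
Share of negative peaks among called 3′ UTR peaks by the gap between the peak and the RefSeq 3′ end of its gene, for all peaks and for those of at most and over 300 bp (bars, 95% Wilson intervals over peaks). Narrow peaks within 50 bases of the end, the class of the positive peaks of Hnf4a and Foxa3, are negative in 13.0%, and wider ones there in 56.8%. Over 2000 and up to 5000 bases away, peaks of all widths are negative in 80.9% and narrow ones in 60.3%. Peaks that pass the gene end by more than 50 bases are left out.

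A single called peak at the gene end together with a called 3′ UTR peak farther upstream was found in 520 genes. The leading upstream peak was negative and the terminal peak positive in 240 of them (46.2%), Hnf4a and Foxa3 included. Both were negative in 160 genes, both positive in 102, and the reverse of the Hnf4a pattern was found in 18 (3.46%). Over the 240 genes the upstream peak had a median of -1.48 and the terminal peak one of 0.725. Upstream minus terminal, the median difference was -2.26, and it was lower than that of Foxa3 in 18 genes and lower than that of Hnf4a in 20. The arrangement itself is thus common in this table, while few of its genes had as large a difference.

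Foxa1, Foxa2 and Cebpa had 1 peak each, annotated to the 5′ UTR. All 3 peaks reach far beyond a 5′ UTR, whatever the label. Foxa2 (ENSMUSG00000037025) spans chr2:148042877-148046969 on the minus strand, and its peak has exactly those ends, 4093 bp in all. The peak of Cebpa (ENSMUSG00000034957), a gene without introns, lies at chr7:35119293-35120910 and covers 61.4% of the span from its first base, stopping 1018 bases before the end. The peak of Foxa1 (ENSMUSG00000035451) lies at chr12:57541827-57545867 on the minus strand, covers 54.6% of a span of 7402 bp, and begins 254 bases after the annotated transcript start. The RefSeq span of Foxa1 starts farther upstream, with a gap of 2162 bases to the peak. Shares of a span, here and below, are of the genome with introns included, and not of the transcript. Whether these peaks hold separate sites at the stop codon or in the 3′ UTR cannot be told from 1 interval.

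Among called peaks with the same label these values stood low, and most of those peaks were positive. Of 3249 called 5′ UTR peaks 2271 were positive, and 32 (0.985%) lay below Foxa1, 130 below Foxa2 and 161 (4.96%) below Cebpa. Among the 978 negative ones alone, 3.27% had a larger change than Foxa1, 13.3% than Foxa2 and 16.5% than Cebpa. The label covers narrow and wide peaks alike. Among called 5′ UTR peaks that covered at least 90% of the gene, the class of Foxa2, 54.5% of 209 were negative (47.8 to 61.2). Of these 209, 25 stood at or below the value of Cebpa, Foxa2 itself included. With 50 to under 90% covered, the class of Foxa1 and Cebpa, 39.4% of 414 were negative (34.8 to 44.2). Of these 414, 26 stood at or below Cebpa, Foxa1 and Cebpa included. With less than 50% covered, the class of the Hnf4a peak, 25.7% of 2319 were negative (24.0 to 27.5), with a median of 0.68 beside the 0.61 of Hnf4a.

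In the C/EBP family the leading peak was called in all 4 genes that had one, negative in 3 and positive in 1, and the list median was -1.78 beside -0.52 over all genes. Without Cebpa itself 2 were negative and 1 positive, and the median was -1.64. In the authors' deposited table Cebpg stood at -2.13 and Cebpb, the acute phase and regeneration factor, at -1.64, each with 1 peak annotated to the 5′ UTR, as in Cebpa. The peak of Cebpb is 28314 bp wide on the genome and reaches far past the gene. Cebpz, which carries the family name but encodes no leucine zipper protein, stood at 0.71 in its 3′ UTR in the authors' deposited table.

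The forkhead list had 20 genes with peaks, of which 11 were negative and called, 4 positive and called and 5 not called, with a median of -1.55. Without the 3 Foxa genes the counts were 8, 4 and 5 of 17 and the median -1.21. Over all genes 47.6% were negative and called and 33.6% positive and called, with a median of -0.52. The forkhead gene next by FDR was Foxp4, a repressor, at -1.91 in the authors' deposited table. Foxo3, the insulin-regulated factor, stood at -2.44 there and was chosen after its value was seen. Of the HNF4 family only Hnf4a itself had a listed peak.

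Other transcription factors of the hepatocyte network were mostly negative by leading peak. Of 18 genes on that list 17 had a peak, and 14 were negative and called, where 47.6% of all genes were, and 3 positive and called. Their median was -1.82 by leading peak and -0.83 by the mean over peaks within a gene, and that of all genes -0.52 by leading peak and 0.00667 by the mean. The authors' deposited table gives -2.09 for Xbp1, which drives secretory capacity, -2.08 for Klf15, a regulator of amino acid and glucose metabolism, and -1.82 for Rxra, the partner of many nuclear receptors. The positive ones, named after their values were seen, were Hhex, a factor of early liver budding, at 1.06, Atf5 at 0.41 and Gata4, also of early liver development, at 0.25 in the authors' deposited table. Over all called peaks of the list 25 were negative and 10 positive.

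Coregulators that work with these factors were negative and called in 9 of 11 genes, positive and called in 1 and not called in 1. Over all genes 47.6% were negative and called and 33.6% positive and called. The median was -1.41 by leading peak and -0.55 by the mean over peaks, beside -0.52 and 0.00667 over all genes. Nr0b2, which encodes the inhibitory receptor SHP, stood at -2.06 in the authors' deposited table. The authors' deposited table has -1.65 for the acetyltransferase gene Ep300 and -1.41 for the corepressor gene Ncor1. Smarca4, a chromatin remodeller ATPase, was the positive one at 0.45 in the authors' deposited table, and Ppargc1a, a coactivator of fasting metabolism, was not called at 1.21 there; both were named after their values were seen. None of these named changes reached the -2.57 of Foxa1.

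Genes that HNF4α, the FOXA proteins or C/EBPα are known to activate in liver went both ways. Of 24 such genes 16 had a peak, with 7 negative and 9 positive, all called, beside 47.6% negative and 33.6% positive over all genes. The median was 0.52 by leading peak and 0.31 by the mean over peaks. Over all their called peaks 14 were negative and 15 positive. Among the negative ones the authors' deposited table gives -2.17 for Cyp8b1, a bile acid synthesis enzyme, -2.11 for G6pc, the last enzyme of glucose output, and -2.05 for Apob, the lipoprotein scaffold. Ttr, which encodes a secreted carrier of thyroid hormone and was chosen after its value was seen, stood at 0.93 in the authors' deposited table.

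**Figure D5:**
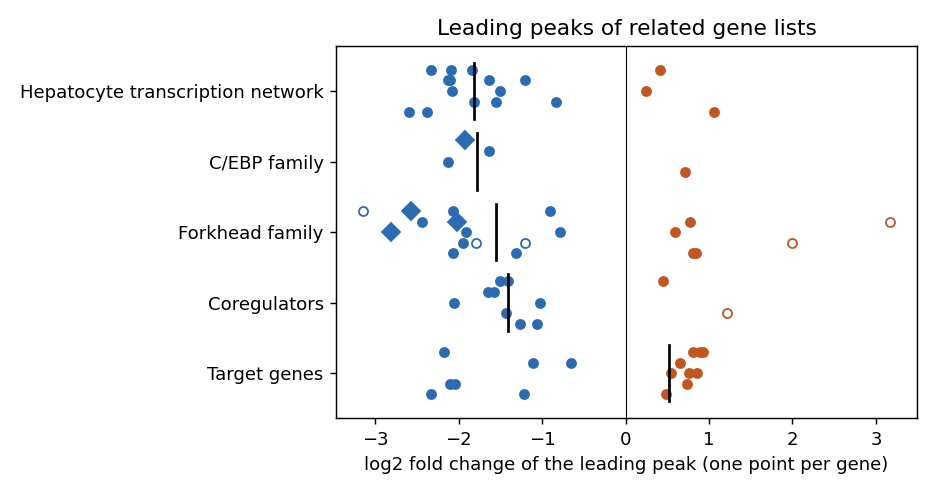
Log2 fold change of the leading peak of each gene in 5 related lists (filled, called; open, not called; diamonds, Cebpa, Foxa1, Foxa2 and Foxa3), with the list median as a black bar. The hepatocyte network has its median at -1.82, the coregulators at -1.41 and the target genes at 0.52.

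Other genes shared the peak pattern of each member. Patterns were compared by number of peaks, features and signs of call. Of 10277 genes with a listed peak, 57 other genes had the pattern of Hnf4a and 200 that of Foxa3. The pattern of Foxa1, Foxa2 and Cebpa was found in 322. Shares among genes with the same number of peaks were not worked out. Within each pattern likeness was the Euclidean distance between log2 fold changes of this 1 comparison. Nearest to Hnf4a were Wwox, at a distance of 0.192, and Retreg3, at 0.270. Near to Foxa3 lay Sesn2, at 0.144. Nearest to Foxa1 were 0610009B22Rik and Arsa, to Foxa2 AC099860 and Hdhd3 and to Cebpa Gemin7 and Lurap1l, each at 0.06 or less.

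The deposited annotation gave the 5 genes several terms in common. Of the terms held by all 5, DNA-binding transcription factor activity had the lowest median and is the one described here. Medians of the others ran from -1.14 (regulation of transcription, DNA-templated) to -0.56 (nucleoplasm). Of 403 genes with that term and a listed peak, 262 were negative and called, 66 positive and called and 75 not called, with a median of -1.21. Without the 5 genes these were 257, 66 and 75 of 398, with a median of -1.2. Each of the 5, taken with their values known, lies below both medians. Over all genes with a peak 47.6% were negative and called and 33.6% positive and called, with a median of -0.52.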

How the data were processed

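The file is a table of m6A peaks made by the authors, with 1 row per peak and no values per library. The submitters' processing notes name HISAT2 2.1.0 and the build mm10. For the peak caller, its filters, the use of replicates and the comparison itself, the method is not given in the sources used here. The authors deposited, per the file headers, a log2 fold change, a log10 FDR and a p-value with 2 decimals for each peak. The deposited log2 fold change and log10 FDR are treated as a score of the authors' own, since no error can be recomputed, and FDR values stop at a log10 of -434 (next lowest -321). Of 17692 rows, 189 without a gene name held their last cells in another order and were left out.

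Peaks were called at an FDR of 0.05 or below. The leading peak of a gene is that with the smallest FDR, ties going to the larger absolute change. RefSeq spans and promoter windows were of GRCm38.p6. Strand came from the promoter table or, failing that, from the deposited distance to the transcript start, and was found for 91.9% of peaks. Where both gave a strand they were equal in 96.9% of 9601 peaks. The selection of leading peaks was tested on simulated data. No test of single peaks, model fit or set test was made. The planned tests on values per library were not run. Members, lists and settings were chosen with earlier results of these data known, and the gene end classes and 5 of the 6 sequence words were added after seeing the data. Named genes are the members, up to 4 called genes of each list by FDR, and for each member the 2 genes of like pattern. Foxo3, Ttr, Hhex, Atf5, Gata4, Smarca4, Ppargc1a and the genes of the KEGG term were named outside it, after their values were seen. Some genes taken by this rule are left unnamed here but stay in all counts. Analyses used Python 3.11.15, numpy 2.4.6, pandas 2.3.3, scipy 1.17.1 and matplotlib 3.10.9.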

Additional observations from a re-analysis of the deposited data

How the results depend on the processing

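The 5 negative peaks of the 5 genes stayed negative and called at an FDR of 0.01, at a minimum size of 1 on the log2 scale and after the table's median of 0.34 was taken off. With peaks of at most 1000 bp the count was 2, since the peaks of Foxa1, Foxa2 and Cebpa are wider. The 3 positive peaks held at an FDR of 0.01. Relative to that median they stayed positive but small, at 0.23 in Foxa3 and at 0.27 and 0.33 in Hnf4a. The FDR was not recomputed for that shift, so the call itself could not change. At a minimum size of 1 on the log2 scale their count was 0, all being below it. The largest absolute change, and 3′ UTR peaks alone where there were any, gave the same leading value. The mean over the peaks of a gene moved Hnf4a to -0.46 and Foxa3 to -1.12, since positive peaks enter. It moved the list medians to -0.83 (hepatocyte network), -0.55 (coregulators), -1.16 (forkhead family) and 0.31 (target genes), and that of all genes turned from negative to 0.00667. The positive share of 3′ UTR peaks at the gene end was 87.0% for peaks of at most 300 bp and 63.6% for those of at most 1000 bp, and 59.6% and 59.3% with gaps of up to 10 and 200 bases (all added after seeing the data). Whole-table counts stayed within 1.5 times. The 189 rows without a gene name were added on the reading that their first moved cell is the fold change and their last the log10 FDR. No paired analysis was possible because the table holds no values per library, and leaving out replicates was not run for the same reason.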

Other observations

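Hnf4a, Foxa2 and Foxa3 share the deposited KEGG term for maturity onset diabetes of the young, a form of diabetes from defects of the pancreatic beta cell programme, which uses many of the same transcription factors as liver. The term was looked at after the values were seen. It held 10 genes with peaks, 9 negative and 1 (Hhex) positive by their leading peak, all called, with a median of -2.22. Without the 3 members 6 were negative and 1 positive of 7, with a median of -2.11. In the authors' deposited table Nr5a2, a nuclear receptor of bile acid and cholesterol handling, stood at -2.59 and Hes1, the Notch target repressor, at -1.48. The GO term endocrine pancreas development, held by the same 3 members, had 13 negative, 1 positive and 2 uncalled genes of 16 and a median of -1.93. Without the members these were 10, 1 and 2 of 13, with a median of -1.57. Glucose homeostasis, held by Hnf4a, Foxa1 and Cebpa, had 37 negative, 21 positive and 14 uncalled genes of 72 and a median of -0.765, and without the members 34, 21 and 14 of 69 and a median of -0.67. Of all genes with a peak, 47.6% were negative and called, and no difference between these terms was tested.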
